A study of Homo sapiens with 36 samples.

Results

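Human chromosome 19 carries long runs of zinc finger genes, and 246 of them are described here. They are the protein-coding genes of chromosome 19 whose symbol is ZNF followed by digits or by digits and a single letter, out of 19974 protein-coding genes on chromosomes 1 to 22 and X. The name holds in the gene map: 232 of the 246 lie in 10 clusters, defined as runs of at least 5 such genes with gaps of at most 500 kb, and 14 lie outside them. Chromatin accessibility was read by ATAC-seq, in which a transposase cuts and tags open DNA, in 36 libraries of BT549, an established triple-negative breast cancer cell line with mesenchymal features. The values are peaks, stretches that the authors called as open in each library separately. A gene was given every peak whose centre lay inside it or within 5 kb of either end. Within each experiment, peaks that overlap by at least 1 bp in any of its libraries were joined to a region, and a region counts as held where the library has a peak over it.

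Most of these genes encode C2H2 zinc finger proteins, many with a KRAB domain. A KRAB protein binds DNA through its fingers and recruits the co-repressor TRIM28, which brings the histone methyltransferase SETDB1, HP1 proteins and histone deacetylases to the site. Many KRAB proteins bind transposable elements, and the genes spread by tandem duplication. The bodies of the clustered genes are themselves known as territory of H3K9 trimethylation and HP1, with ZNF274 among the factors that bind there, while promoters of the same genes can be open and active. SWI/SNF complexes, driven by the ATPases BRG1 or BRM, slide and evict nucleosomes, mainly at enhancers and also next to promoters.

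The libraries fall into 3 experiments. In the BRM014 experiment, cells received 10 µM BRM014, which inhibits the ATPase activity of BRG1 and BRM, or DMSO for 4 h, each with or without 500 nM dexamethasone (DEX), a glucocorticoid receptor ligand, for 4 h. The groups DEX_BRM014, BRM014, DEX_DMSO and DMSO have 4 libraries each. In the knockdown experiment, cells with siRNA against BRG1 and BRM together (siBRG1_siBRM) were compared with control siRNA cells (siCtl_only), 4 libraries each, and the length of this knockdown is not given in the sources used here. In the GATA6 experiment, cells carried siRNA against the transcription factor GATA6 (siGATA6) or control siRNA (siCtl) for 72 h and received 500 nM DEX or vehicle for 2 h. The groups siGATA6_DEX, siGATA6_Veh, siCtl_DEX and siCtl_Veh have 3 libraries each. All groups are the same cell line in bulk, so fewer cells with an open site and a less open site in every cell cannot be told apart. Peak lists do not show whether the siRNAs lowered their targets. The titles call the replicates biological, and whether they came from separate cultures is not stated further.

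Between 37184 and 131423 peaks were called per library. Read depth is unknown, since a peak list holds no counts. The number of peaks was lower with SWI/SNF loss of function: 54552 ± 7602 with BRM014 and 96439 ± 4754 without it (SD, n = 8 each, with and without DEX together; two-sided exact permutation p = 0.000408), and 50934 ± 12122 after the knockdown and 85769 ± 2782 with control siRNA (SD, n = 4 each). For the knockdown the exact permutation p was 0.0286, below which a two-sided comparison of 4 with 4 libraries cannot go. The background level that the authors' fold and p-value imply at weak peaks, a rough measure of depth, overlapped between the groups (0.2345 to 0.299 in BRM014 libraries and 0.241 to 0.305 in DMSO libraries). The share of the 3000 weakest peaks whose implied background was at that lowest level did not overlap, at 13.3% to 62.3% in BRM014 libraries and 66.2% to 92.8% in DMSO libraries, while the ranges of 11.97% to 82.03% after the knockdown and 22.6% to 70.9% with control siRNA overlapped. The part of these differences in the results was not tested. Of the mesenchymal markers, 6 of 7 had a peak at the gene start in all 36 libraries, the exception being ZEB1 with 32. The starts of the luminal genes ESR1 and PGR and of the leukocyte genes PTPRC and CD79A had none in any library, and those of GATA3 and KRT8, luminal genes too, had one in 11 and 20 libraries. FOXA1, a luminal factor, and CD14, a monocyte receptor, had one in all 36, the only ones of 5 luminal and 3 leukocyte genes with a known strand to do so. TEK, the only endothelial gene with one, had a start peak in 18.

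Promoter sequences are given for the genes that carry the main contrasts. Each is the 300-base RefSeq window (GRCh38.p14) from 250 bases before to 50 bases after the start, written 5′ to 3′ on the strand of the gene. RefSeq promoters matched 216 of the 246 genes by symbol, and the other 30 have no strand or promoter here. Capitals mark every match, on either strand, to 12 short motifs that are listed further on. The first pair shows promoters whose start regions ranked highest among those with a peak in all 36 libraries, of genes with a promoter within 1000 bp of the gene end: ZNF17 (chr19:57410911-57411210, plus strand) and ZNF549 (chr19:57527106-57527405, plus strand).
ZNF17: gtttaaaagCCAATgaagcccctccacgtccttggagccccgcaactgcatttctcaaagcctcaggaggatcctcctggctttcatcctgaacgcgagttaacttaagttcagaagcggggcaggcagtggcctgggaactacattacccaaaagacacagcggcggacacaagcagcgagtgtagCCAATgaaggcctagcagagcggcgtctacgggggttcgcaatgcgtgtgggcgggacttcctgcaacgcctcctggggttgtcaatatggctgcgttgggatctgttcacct
ZNF549: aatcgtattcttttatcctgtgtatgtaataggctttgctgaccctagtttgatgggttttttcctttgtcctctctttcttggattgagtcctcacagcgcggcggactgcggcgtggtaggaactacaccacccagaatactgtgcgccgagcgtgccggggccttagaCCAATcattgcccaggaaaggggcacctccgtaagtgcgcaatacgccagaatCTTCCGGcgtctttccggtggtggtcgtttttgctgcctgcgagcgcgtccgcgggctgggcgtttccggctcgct

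The next group lost a peak beside the promoter in both BRM014 comparisons while the window itself had a peak in all 36 libraries: ZNF304 (chr19:57351021-57351320, plus strand), ZNF845 (chr19:53333499-53333798, plus strand) and ZNF274 (chr19:58182811-58183110, plus strand).
ZNF304: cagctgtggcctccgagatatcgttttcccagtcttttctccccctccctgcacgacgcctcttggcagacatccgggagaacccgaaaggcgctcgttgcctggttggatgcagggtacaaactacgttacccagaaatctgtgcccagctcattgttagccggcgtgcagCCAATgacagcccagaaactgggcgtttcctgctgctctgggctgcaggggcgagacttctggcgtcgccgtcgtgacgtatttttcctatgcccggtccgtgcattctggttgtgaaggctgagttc
ZNF845: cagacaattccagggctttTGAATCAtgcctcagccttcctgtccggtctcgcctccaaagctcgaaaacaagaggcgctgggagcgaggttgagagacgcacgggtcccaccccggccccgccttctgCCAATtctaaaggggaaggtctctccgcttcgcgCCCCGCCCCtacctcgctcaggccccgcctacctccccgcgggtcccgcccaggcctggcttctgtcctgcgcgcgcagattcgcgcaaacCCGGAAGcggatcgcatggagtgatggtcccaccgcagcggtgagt
ZNF274: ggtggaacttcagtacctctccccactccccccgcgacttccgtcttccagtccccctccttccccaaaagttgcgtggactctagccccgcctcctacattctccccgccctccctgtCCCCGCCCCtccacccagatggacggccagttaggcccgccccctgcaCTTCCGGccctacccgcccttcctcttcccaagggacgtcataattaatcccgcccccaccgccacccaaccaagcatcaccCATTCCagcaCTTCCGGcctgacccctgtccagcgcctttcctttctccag

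ZNF875 (chr19:37312587-37312886, plus strand) and ZNF587B (chr19:57830049-57830348, plus strand) are shown because their promoter windows had a peak in at least 3 of 4 DMSO libraries and in none of the DEX_BRM014 or siBRG1_siBRM libraries. They were chosen after their values were seen.
ZNF875: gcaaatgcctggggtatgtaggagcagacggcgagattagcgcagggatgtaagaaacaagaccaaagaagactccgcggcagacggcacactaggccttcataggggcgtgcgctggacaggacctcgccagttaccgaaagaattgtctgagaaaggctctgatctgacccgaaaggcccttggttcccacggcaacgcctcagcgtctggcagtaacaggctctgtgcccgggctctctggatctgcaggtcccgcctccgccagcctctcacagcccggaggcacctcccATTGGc
ZNF587B: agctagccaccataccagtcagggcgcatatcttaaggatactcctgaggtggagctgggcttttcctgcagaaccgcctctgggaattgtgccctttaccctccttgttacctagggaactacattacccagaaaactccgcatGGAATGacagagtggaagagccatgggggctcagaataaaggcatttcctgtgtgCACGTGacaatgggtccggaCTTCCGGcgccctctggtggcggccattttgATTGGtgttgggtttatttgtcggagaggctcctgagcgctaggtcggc

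ZNF177 (chr19:9362763-9363062, plus strand) and ZNF208 (chr19:22010894-22011193, minus strand) had no peak over the promoter in any library.
ZNF177: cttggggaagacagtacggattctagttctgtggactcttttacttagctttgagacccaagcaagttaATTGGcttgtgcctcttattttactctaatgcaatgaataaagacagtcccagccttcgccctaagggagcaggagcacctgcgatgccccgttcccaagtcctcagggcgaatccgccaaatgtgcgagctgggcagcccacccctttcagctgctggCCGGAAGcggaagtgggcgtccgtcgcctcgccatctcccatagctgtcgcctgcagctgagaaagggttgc
ZNF208: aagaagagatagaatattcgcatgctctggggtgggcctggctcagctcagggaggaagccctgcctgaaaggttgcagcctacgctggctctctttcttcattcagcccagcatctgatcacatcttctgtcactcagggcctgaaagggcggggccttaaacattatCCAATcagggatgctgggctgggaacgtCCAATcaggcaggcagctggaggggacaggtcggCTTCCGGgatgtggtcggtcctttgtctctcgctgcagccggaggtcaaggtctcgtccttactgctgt

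Nearly all of the ZNF promoters were open in these cells under every condition. A peak lay over the promoter window in all 36 libraries for 196 of 216 chromosome 19 ZNF genes (90.7%), in some libraries for 9 and in none for 11 (5.09%). ZNF genes of other chromosomes had a peak in all 36 libraries at 157 of 214 promoters (73.4%), other chromosome 19 genes at 422 of 969 (43.55%), and all other protein-coding genes at 7479 of 15596 (47.95%). The last of these sets had no peak in any library at 30.9% of promoters. These shares are given as counts without a test, since genes are not replicates. Between 199 and 201 of the 216 promoters had a peak in a BRM014 library, against 202 to 203 in a DMSO library. The range was 197 to 201 with siBRG1_siBRM, against 202 to 203 with siCtl_only, and 204 to 205 in each GATA6-experiment group. The ranges of BRM014 and DMSO did not overlap, nor did those of siBRG1_siBRM and siCtl_only. With DEX the ranges met, at 199 to 202 in DEX_BRM014 libraries and 202 to 204 in DEX_DMSO libraries.

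**Figure D1:**
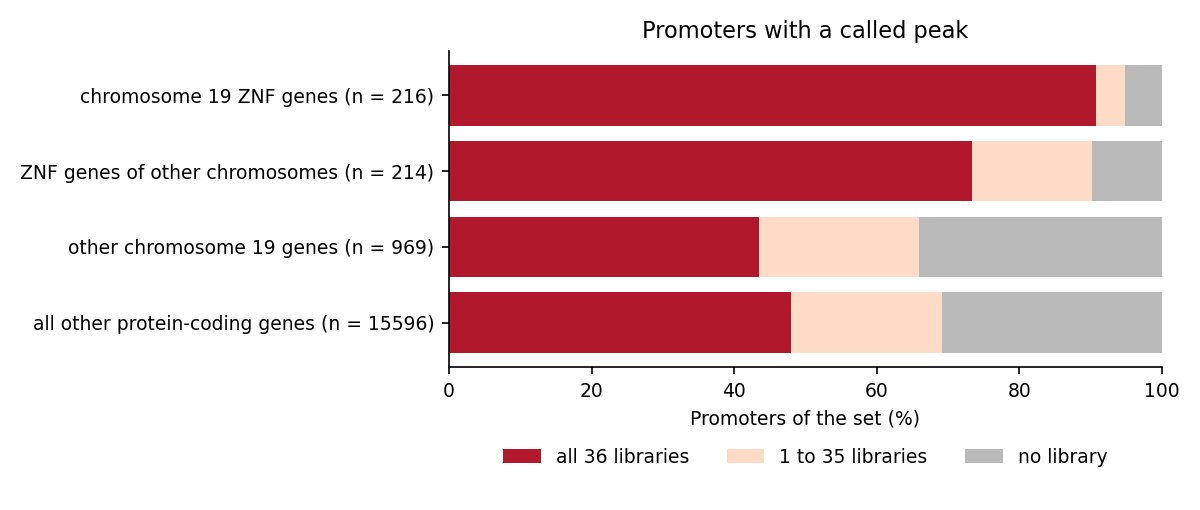
Share of promoters (%) with a peak over the 300-base window in all 36 libraries, in 1 to 35 libraries or in none, for 4 sets of genes with n promoters each. The red bar reaches 90.7% for the chromosome 19 ZNF genes and 47.95% for all other protein-coding genes.

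The strongest starts sit in the last cluster and in that around ZNF443. The best mean rank of a start region in the peak lists (0% being the strongest peak of a library) was that of ZNF584 at 0.251%, then ZNF17 at 0.433%, ZNF549 at 0.524%, ZNF443 at 0.975%, ZNF627 at 0.980% and ZNF773 at 1.27%. Over all ZNF starts, the median rank within a library lay between 11.2% and 20.2% of the list. No promoter peak was found in any library for ZNF177, ZNF560, ZNF90, ZNF208, ZNF723, ZNF536, ZNF540, ZNF574, ZNF404, ZNF534 or ZNF835. ZNF536 is known as a neural factor without a KRAB domain. No region of any kind was assigned to 8 genes, of which 6 in alphabetical order are ZNF177, ZNF208, ZNF404, ZNF560, ZNF676 and ZNF723, with ZNF728 and ZNF90 the others. No called peak means only that nothing passed the authors' threshold of q = 0.05.

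The 9 promoters with a peak in some libraries hold the few that moved with the conditions. ZNF875 had a promoter peak in 0 of 4 BRM014, 0 of 4 DEX_BRM014 and 0 of 4 siBRG1_siBRM libraries, against 3 of 4 DMSO, 3 of 4 DEX_DMSO and 2 of 4 siCtl_only libraries. In the GATA6 experiment all 3 libraries of every group held it. ZNF587B had a promoter peak in 2 of 4 BRM014, 0 of 4 DEX_BRM014 and 0 of 4 siBRG1_siBRM libraries, against 4 of 4 DMSO, 4 of 4 DEX_DMSO and 3 of 4 siCtl_only libraries. Part of the ZNF587B promoter is shared with that of ZNF814, as given below, so reads may have been split between them. ZNF607 had one in 0 of 4 BRM014 libraries but in 3 of 4 DEX_BRM014 libraries, against 4 of 4 in both DMSO and DEX_DMSO. The start regions of ZNF875 and ZNF587B were weak, with mean ranks of 67.4% and 68.0% in the peak lists. The ZNF607 region over the promoter window, chr19:37719277-37719506, had a mean rank of 39.7%, and another start region of ZNF607 was held by every BRM014 library. ZNF154, a gene whose promoter is known to be methylated in many tumours, had a promoter peak in 15 libraries, all 12 of the GATA6 experiment and 3 of the remaining 24. The other members of this class were ZNF541 with 7 libraries, ZNF575 with 33, ZNF296 with 34, and ZNF613 and ZNF792 with 35 each.

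The promoters share sequence features that their choice did not use. The ETS motif CCGGAAG was found at 98 of 216 ZNF promoters (45.4%), against 34.1% of promoters of ZNF genes elsewhere, 13.0% of other chromosome 19 promoters and 14.2% of all 15812 coding promoters. Restricting both sets to promoters with a peak in all 36 libraries gave 47.45% of ZNF promoters and 24.2% of all coding promoters. The NFY motif CCAAT was found at 53.7% of ZNF promoters and 36.3% of all. Among promoters open in all libraries these shares were 55.1% and 41.6%. For each of the remaining motifs the shares differed by less in percentage points. The shares in ZNF promoters and in all coding promoters were 24.1% and 22.4% for SP/KLF (GGGGCGGGG), 15.3% and 11.7% for TEAD (GGAATG), and 10.2% and 11.2% for the glucocorticoid receptor half-site (AGAACA). They were 6.48% and 5.76% for AP-1 (TGANTCA), 3.70% and 5.14% for the motif GATAAG of GATA factors, 4.17% and 8.87% for the E-box (CACGTG), and 3.24% and 2.59% for CREB (TGACGTCA). For YY1 (AAGATGGCG) they were 3.70% and 2.75%, for NRF1 (GCGCATGCG) 2.78% and 2.76%, and for ZNF143 (ACTACAATT) 1.39% and 0.462%. A match is a run of letters in the window and not evidence of binding.

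The base composition of the ZNF promoters was near that of all promoters. Their median GC content was 59.8%, against 62.7% over all coding promoters, and their median ratio of observed to expected CpG was 0.765, against 0.763. The 11 ZNF promoters without a peak in any library kept a median CpG ratio of 0.606, whereas all coding promoters without a peak had 0.274. A run of 50 bases in common with another coding promoter was found for 27 of 216 ZNF promoters (12.5%), against 13.8% of all coding promoters. For 22 of the 27 the windows overlap on the chromosome, as at the head-to-head pairs ZNF569 and ZNF570 or ZNF529 and ZNF382. The pairs at separate places were ZNF69 with ZNF700, ZNF587B with ZNF814, and ZNF431 with ZNF107, and their peaks may share reads.

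Away from promoters the ZNF genes held few regions. They had 674 regions in the BRM014 experiment, 550 in the knockdown experiment and 713 in the GATA6 experiment, with a median of 3, 2 and 3 regions per gene, where all protein-coding genes had medians of 5, 4 and 5. Regions centred within 1000 bp of a gene end made up 58.5%, 65.45% and 61.0% of the ZNF regions, against 23.8%, 30.7% and 23.65% of the regions of all protein-coding genes. Per 1000 kb of gene with its 5 kb flanks there were 80.2, 66.4 and 85.5 ZNF regions, close to the 93.4, 65.7 and 99.4 of all coding genes, whereas other chromosome 19 genes had 180.9, 135.6 and 191.7. Of the ZNF regions, 48.4% were held by all 16 libraries of the BRM014 experiment, against 15.3% of all regions. The shares were 59.1% and 22.4% over the 8 knockdown libraries, and 56.1% and 35.1% over the 12 GATA6 libraries. The genes with most regions in the BRM014 experiment were ZNF254 and ZNF581 with 11 each, ZNF69 with 10, and ZNF665, ZNF83 and ZNF544 with 9 each. ZNF254 and ZNF83 are 96.5 and 78.1 kb long, while ZNF581 spans 10.6 kb.

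Fewer ZNF regions had a peak with SWI/SNF inhibited or depleted, in every library, while nearly all starts kept theirs. The counts of ZNF regions per library were 374, 406, 391 and 342 with BRM014, against 431, 456, 446 and 469 with DMSO. With DEX they were 401, 394, 379 and 373 in DEX_BRM014 libraries, against 483, 468, 475 and 454 in DEX_DMSO libraries. The BRG1 and BRM knockdown gave 397, 383, 346 and 383, against 439, 467, 441 and 434 with control siRNA. In each of these 3 comparisons the ranges did not overlap. At gene ends the means were 268.5 ± 12.7 with BRM014 and 308.0 ± 8.45 with DMSO, and at other regions 109.8 ± 15.4 and 142.5 ± 8.19 (SD, n = 4 each). The share of ZNF regions held was 56.1% ± 4.08 with BRM014 and 66.8% ± 2.38 with DMSO, where over all regions of the experiment it was 26.7% ± 4.77 and 47.6% ± 2.59 (SD, n = 4 each). The number of starts with a peak moved by a few genes, to 182.0 ± 1.41 with BRM014, against 185.0 ± 0.816 with DMSO.

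These counts move with the number of peaks called per library. When every library of an experiment was limited to the same number of its best peaks, 41026 in the BRM014 experiment, the order turned round: 355, 358, 352 and 342 ZNF regions were held with BRM014, against 321, 335, 331 and 327 with DMSO. With DEX the counts were 357, 354, 363 and 354 in DEX_BRM014 libraries, against 328, 334, 339 and 327 in DEX_DMSO libraries. At 37184 peaks per library the knockdown gave 333, 351, 346 and 345, against 312, 311, 317 and 311 with control siRNA. ZNF regions thus took a larger place among the best peaks with the ATPases inhibited or depleted, in all 3 comparisons and without overlap of the ranges. Over all regions, 38751 to 39472 were then held with BRM014, against 40197 to 40379 with DMSO. Other gene sets and gene-end regions were not counted at equal numbers, so whether the rise is particular to ZNF genes was not tested. How much of either difference comes from the number of peaks called was not tested.

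**Figure D2:**
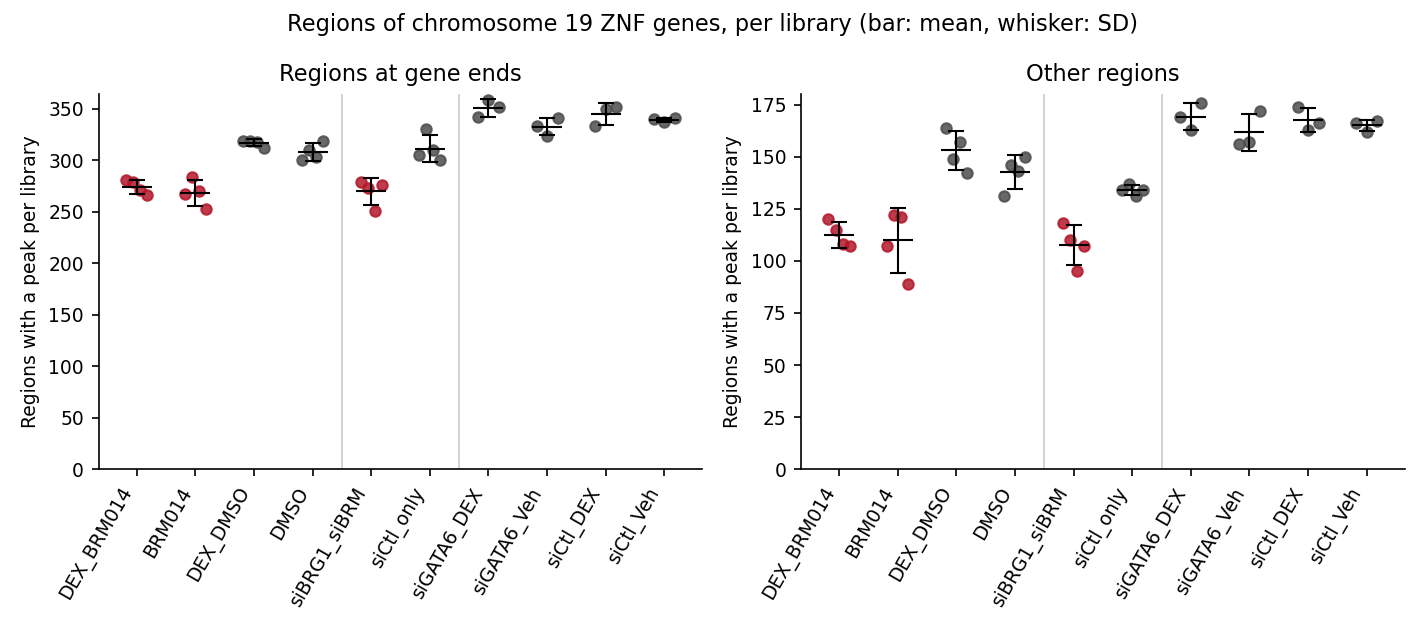
Number of ZNF regions with a peak in each library (points), at gene ends on the left and elsewhere on the right, with the mean (bar) and SD (whisker) of each group. The BRM014 and siBRG1_siBRM libraries (red) lie at 251 to 284 gene-end regions and at 89 to 122 other regions, below all libraries without them, an order that turns round for the summed regions when each library gives the same number of best peaks. Counts are comparable within the panels' 3 blocks, not between them, since regions were merged per experiment.

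ZNF regions open in the controls mostly stayed open. Of 276 gene-end regions held by all 4 DMSO libraries, 247 (89.5%) were held by all 4 BRM014 libraries, and of 112 other regions 83 (74.1%) were. Over all protein-coding genes these shares were 74.3% and 41.4%, over other chromosome 19 genes 79.9% and 57.8%, and over ZNF genes of other chromosomes 80.9% and 52.6%. With DEX, 255 of 286 gene-end regions (89.2%) and 87 of 114 other regions (76.3%) of the ZNF genes were kept, against 77.5% and 44.3% over all coding genes. After the knockdown 242 of 279 (86.7%) and 83 of 103 (80.6%) were kept, against 73.8% and 41.15%. All of these shares rest on all called peaks, and the part of the lower number of peaks per library in them was not tested.

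The ZNF regions were also stronger in the controls. The median mean rank in DMSO libraries was 11.8% for ZNF gene-end regions and 22.7% for those of all coding genes. Among regions within the top 25% of the list, 196 of 197 ZNF gene-end regions (99.5%) were kept with BRM014, near the 97.7% of all coding genes. Among other regions within that top 25%, 56 of 58 (96.55%) were kept, against 77.2% over all coding genes. With DEX the shares at such other regions were 98.3% and 76.5%. After the knockdown all 56 of 56 were kept, against 72.6%. The ZNF regions were stronger within this top 25% too. In DMSO libraries the median mean rank of its other regions was 7.379%, against 13.91% over all coding genes. The order was the same with DEX and in the knockdown experiment, so these shares do not compare regions of equal strength. In the weaker part of the list losses were common on both sides: between ranks of 50% and 100%, 9 of 28 ZNF gene-end regions (32.1%) and 3 of 17 other regions (17.65%) were kept with BRM014, against 19.2% and 10.0%. Many of the other regions are near some promoter. Of the 112, 55 (49.1%) lay within 1000 bp of an end or promoter of any coding or lncRNA gene, against 8.22% of the 26973 other regions of all coding genes. Of the 57 that did not, 37 (64.9%) were kept with BRM014, against 39.6% over all coding genes.

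**Figure D3:**
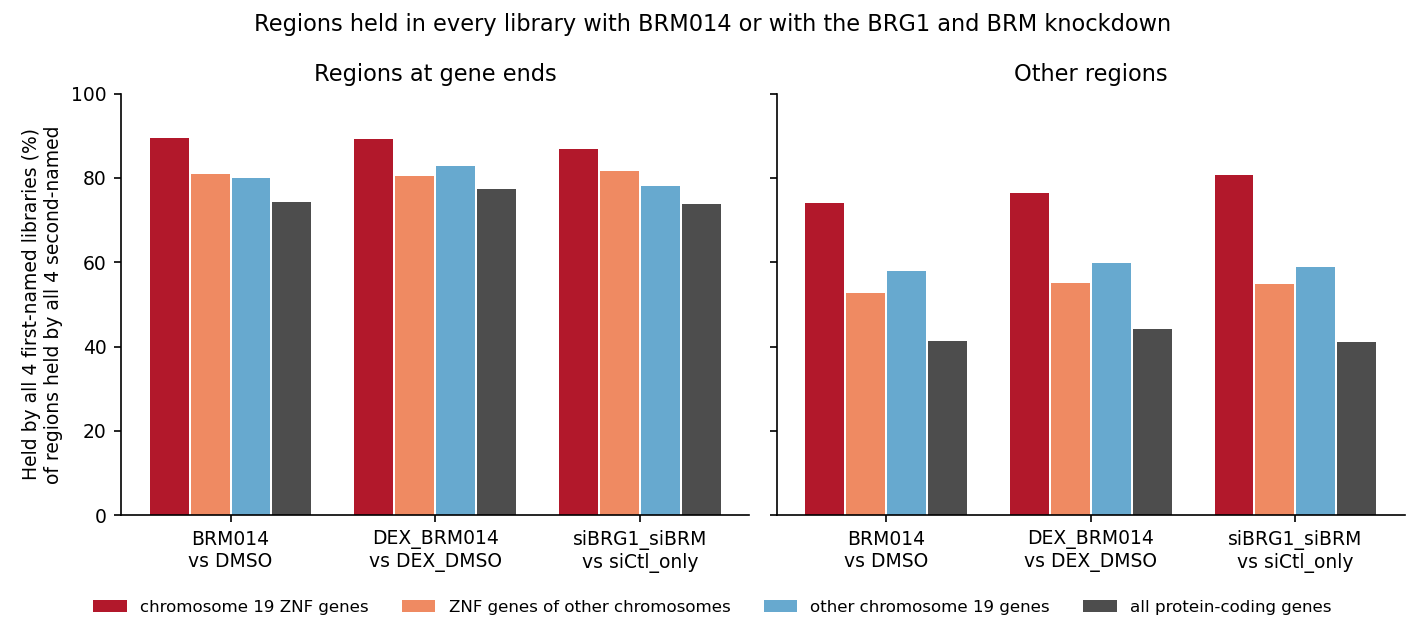
Share (%) of regions held by all 4 libraries of the second-named group that were also held by all 4 libraries of the first-named group, at gene ends (left) and elsewhere (right), in 3 comparisons. Bars for the chromosome 19 ZNF genes run from 86.7% to 89.5% at gene ends and from 74.1% to 80.6% elsewhere, above the bars of the other 3 sets in every comparison.

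Around the ZNF starts, the peak over the promoter stayed and the peaks on either side became fewer, by more percentage points downstream. In the 250-bp bin just before the annotated start, 72.8% of the 216 genes had a peak centre with BRM014 (at least 71.3% in each of 4 libraries), against 72.45% with DMSO (70.8% to 73.6%). In the bin centred 375 bp after the start the share was 12.15% with BRM014 (10.65% to 15.3%), against 17.5% with DMSO (15.7% to 19.4%), and at 625 bp it was 4.28% (2.78% to 5.09%), against 7.87% (6.48% to 9.26%). The knockdown gave 72.9% before the start, against 70.95% with control siRNA, and 12.3% at 375 bp (9.72% to 15.3%), against 19.3% (16.2% to 24.1%). At 625 bp it gave 5.44% (4.17% to 6.94%), against 7.87% with control siRNA (6.48% to 8.80%). In the bin centred 625 bp before the start, ZNF genes had 3.01% with BRM014 (2.78% to 3.24%), against 4.05% with DMSO (3.70% to 5.09%). The knockdown gave 2.66% there (2.315% to 3.24%), against 4.05% with control siRNA (3.24% to 4.63%). Other coding genes moved alike on both sides. They had 5.78% at 625 bp after the start with BRM014, against 9.42% with DMSO. At 625 bp before it they had 3.83%, against 5.77%. In the bin just before the start they had 44.8% with BRM014, against 46.8% with DMSO. Apart from the bin just before the start and the knockdown 625 bp on either side, the ranges given here did not overlap between groups. No test was made over genes. These shares too rest on all called peaks.

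**Figure D4:**
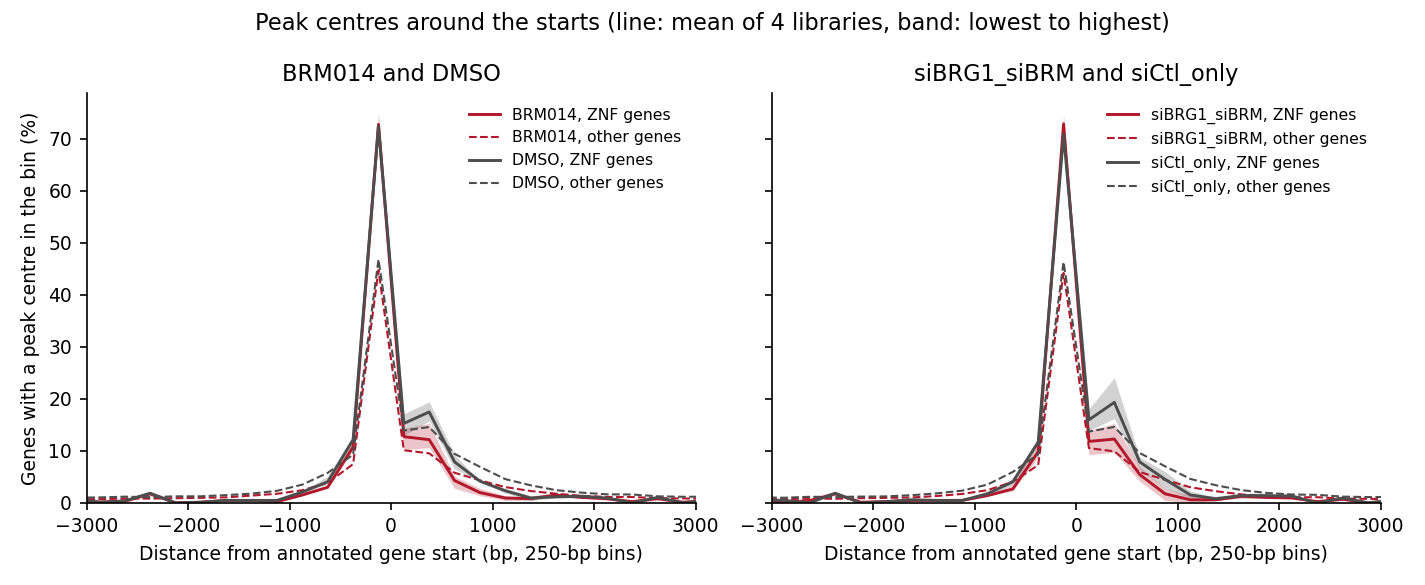
Share of genes (%) with a peak centre in each 250-bp bin around the annotated start, for the chromosome 19 ZNF genes (solid lines, mean of 4 libraries, with the band from the lowest to the highest library) and other coding genes (dashed lines). In the bin before the start the ZNF genes reach 72.8% with BRM014 and 72.45% with DMSO. The lines part more on the downstream side, at 12.15% and 17.5% in the bin centred 375 bp after the start. Upstream they are at 3.01% and 4.05% in the bin centred 625 bp before it.

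Regions fully lost were few. A region was called lost when no library of the first-named group and every library of the second held it, and gained in the opposite case. BRM014 without DEX lost 13 of 674 ZNF regions (1.93%), where 8.39% of all regions of the experiment were lost, and gained none, where 0.0321% of all were gained. Without DMSO replicate 1, a single ZNF region was gained. BRM014 with DEX lost 26 (3.86%), where the background was 9.21%, and gained none, where it was 0.0632%. The knockdown lost 11 of 550 (2.0%), where the background was 6.61%, and gained none, where it was 0.0272%. Other chromosome 19 genes lost 4.435%, 5.11% and 3.21% of their regions, and ZNF genes of other chromosomes 5.49%, 5.98% and 3.85%. The lost ZNF regions were at a gene start in 7 of 13, 12 of 26 and 6 of 11 cases. They make up 38 distinct places. Without DEX they belong to ZNF100, ZNF536, ZNF302, ZNF607, ZNF541, ZNF577, ZNF83, ZNF845, ZNF761, ZNF304, ZNF552, ZNF274 and ZNF544. With libraries limited to the same number of best peaks, the losses were 2, 3 and 0 ZNF regions and the gains 7, 1 and 2, with 6.16%, 6.775% and 4.33% of all regions lost and 1.515%, 1.86% and 1.28% gained.

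Most ZNF genes that lost a start region kept another peak at the start. All 7 ZNF genes that lost a start region with BRM014 kept another peak at the start in every BRM014 library. So did 10 of 12 with DEX (not ZNF444 and ZNF587B) and 5 of 6 after the knockdown (not ZNF565), in every library so treated. The same counts over all coding genes are not given here, so whether this is particular to ZNF genes was not tested. The start here is an outermost gene end. The promoter windows of ZNF444 and ZNF565 lie 8734 and 30844 bp from the gene end and had a peak in all 36 libraries. The lost start regions of ZNF254 and ZNF329 lay 52606 and 3760 bp from their promoter windows. ZNF274, which binds the ends of other ZNF genes and recruits SETDB1, is among the genes that kept another start peak. Its region at chr19:58183679-58183939, centred 748 bp inside the gene, had a peak in 0 of 4 BRM014 and 0 of 4 DEX_BRM014 libraries, against 4 of 4 DMSO and 4 of 4 DEX_DMSO libraries. The authors' fold enrichment there was 6.71 to 11.7 in DMSO libraries, at ranks of up to 50.35% of the list. It was held by 4 of 4 siBRG1_siBRM libraries with folds of 5.915 to 10.1, against 4 of 4 siCtl_only libraries with 9.755 to 10.1, so the region was called lost with the inhibitor and not after the knockdown. The promoter region of ZNF274 itself was held by every library, with folds of 18.5 to 20.8 in BRM014 libraries and 14.25 to 20.4 in DMSO libraries. Folds are the authors' own, relative to the background of each library.

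Other regions lost in both BRM014 comparisons lie beside ZNF845, ZNF304, ZNF302, ZNF577 and ZNF83. The ZNF845 region, chr19:53333216-53333377, ends 122 bp from the promoter window, and that of ZNF304, chr19:57351989-57352108, lies 669 bp from it. Both had a peak in 1 of 4 siBRG1_siBRM libraries, against 4 of 4 and 3 of 4 siCtl_only libraries. The ZNF302 region, chr19:34677861-34678023, is inside the gene and had a peak in 0 of 4 siBRG1_siBRM libraries, against 3 of 4 siCtl_only libraries. The ZNF577 region, chr19:51799405-51799713 as merged in the BRM014 experiment, lies outside the gene, 88392 bp from its start and 4402 bp from an end of the formyl peptide receptor gene FPR3. It had no peak in any BRM014, DEX_BRM014 or siBRG1_siBRM library and a peak in each of the other 24 libraries. Its folds were 11.2 to 18.2 in DMSO libraries, at ranks of 22.4% to 41.2%. The ZNF83 region, chr19:52637903-52638141, 52474 bp inside the gene, had the same pattern over all 36 libraries, with folds of 6.725 to 10.4 in DMSO libraries.

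With equal numbers of peaks the ZNF577 region was again lost in both BRM014 comparisons, with the ZNF607 promoter region in the comparison without DEX and the ZNF274 and ZNF787 regions in that with DEX. These 5 calls over both comparisons were all among those made with all peaks. The regions gained after the knockdown with equal numbers, at ZNF536 and ZNF575, had not been called with all peaks. The ZNF787 region, chr19:56120314-56120505, was held by 0 of 4 DEX_BRM014 libraries, against 4 of 4 DEX_DMSO libraries, but by 2 of 4 BRM014 and by 4 of 4 siBRG1_siBRM libraries. With DEX present, ZNF347 and ZNF665 lost a pair of shared regions, at chr19:53157744-53157928 and chr19:53158073-53158514, and ZNF749 lost a pair at chr19:57435516-57435675 and chr19:57435770-57435938.

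Some regions were called lost after the knockdown and not with the inhibitor. ZNF93, whose protein represses LINE-1 elements, lost the region chr19:19900247-19900440, 602 bp outside the gene start, with a peak in 0 of 4 siBRG1_siBRM and 4 of 4 siCtl_only libraries, whereas 4 of 4 BRM014, 2 of 4 DEX_BRM014, 4 of 4 DMSO and 4 of 4 DEX_DMSO libraries held it. The ZNF93 region was near the bottom of the BRM014 lists, with folds of 3.496 to 4.855 at ranks of 83.5% to 99.2%. In DMSO libraries its folds were 4.92 to 6.62, at ranks of 53.4% to 72.1%. ZNF813, at chr19:53467965-53468155, and ZNF254, at chr19:24034205-24034331, had a peak in 0 of 4 siBRG1_siBRM libraries but in 3 of 4 BRM014 libraries. ZNF254 lost a further region inside the gene, chr19:24054607-24054925, which 0 of 4 BRM014 libraries held too. Between comparisons, 6 of the 13 places lost with BRM014 (46.2%) were among the 26 lost with BRM014 and DEX (23.1% of these). Of the 26, 6 (23.1%) overlapped 6 of the 11 places lost after the knockdown (54.55%), and of the 13, 2 (15.4%) overlapped 2 of the 11 (18.2%). The overlaps over all lost regions are not given here, so these shares have no background beside them. Whether they are particular to ZNF regions was not tested. None of these comparisons share libraries.

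**Figure D5:**
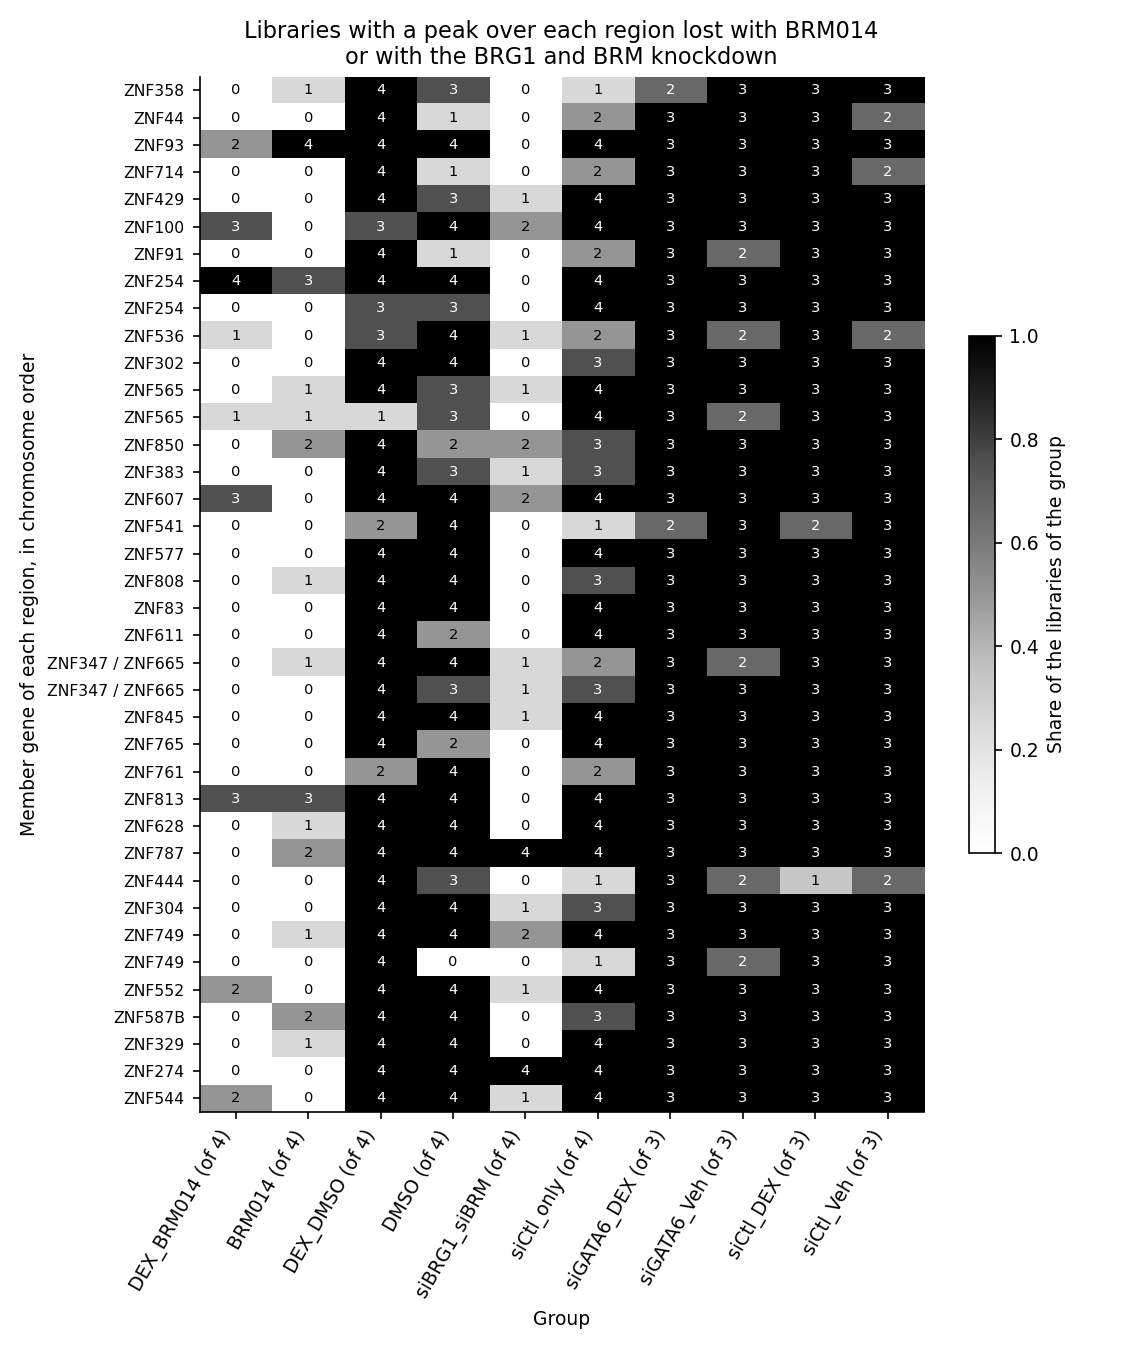
Number of libraries with a peak over each of the 38 ZNF regions lost with BRM014, with BRM014 and DEX, or after the BRG1 and BRM knockdown, by group (columns) and in chromosome order (rows, named by the ZNF gene). Shading gives the share of the libraries of the group. ZNF577 and ZNF83 are at 0 in all 3 groups with the ATPases inhibited or depleted and full in the rest, and ZNF274 is full in siBRG1_siBRM libraries.

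Gene by gene, 33 of 238 tested ZNF genes (13.9%) had fewer regions with a peak with BRM014, and none had more. Without adjustment 45 had fewer and none had more at p under 0.05. The number of regions per library was compared by a two-sided exact permutation test within DEX levels, with Benjamini-Hochberg adjustment over all 18206 genes, at adjusted p under 0.05. Over all protein-coding genes 38.8% had fewer and 0.0989% had more, over other chromosome 19 genes 24.2% had fewer, and over ZNF genes of other chromosomes 28.2%. The median difference was -0.125 regions for the chromosome 19 ZNF genes and -0.75 for all genes. With equal numbers of peaks, 1 ZNF gene (ZNF577) had fewer and 6 had more (ZNF556, ZNF653, ZNF613, ZNF524, ZNF581 and ZNF580), and the rest of the 33 were not called. The shares of all genes called under that setting are not given here, so these counts have no background beside them.

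ZNF347 had the largest difference. It held 3 regions in each of the 4 BRM014 libraries and 4, 4, 3 and 3 in DEX_BRM014 libraries, against 6, 5, 5 and 6 in DMSO and 6 in each of the 4 DEX_DMSO libraries. The difference was -2.5 regions (exact permutation test, adjusted p = 0.00273), with no overlap between groups. ZNF665, its neighbour, shares some of these regions and differed by -2.375. ZNF536 differed by -2.375, with overlap between groups at both DEX levels, and ZNF254 by -2.0, with overlap without DEX only. ZNF274 held 1 region in each BRM014 library and 1, 2, 2 and 1 in DEX_BRM014 libraries, against 2, 4, 4 and 4 in DMSO and 3, 3, 4 and 4 in DEX_DMSO libraries. Its difference was -2.25 regions (exact permutation test, adjusted p = 0.00273). ZNF577 held 1, 2, 2 and 1 with BRM014 and 1, 2, 1 and 1 with DEX_BRM014, against 4, 4, 3 and 4 with DMSO and 3, 3, 4 and 4 with DEX_DMSO. It also differed by -2.25.

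ZNF91, whose protein represses SVA retrotransposons, had most regions in the BRM014 experiment with DEX and no inhibitor. It held 1 region in each BRM014 library and 1, 2, 1 and 1 in DEX_BRM014 libraries, against 1, 2, 1 and 2 in DMSO and 4, 3, 3 and 3 in DEX_DMSO libraries. The difference over both was -1.25 regions (exact permutation test, adjusted p = 0.01975), and the groups overlapped without DEX. Whether the effect of BRM014 on ZNF91 differs with DEX was not tested. The rest of the fixed set of named genes did not pass. ZNF331, an imprinted gene, differed by -0.875 (exact permutation test, adjusted p = 0.168), and ZNF93 and ZNF224 by -0.5 each. ZNF43, ZNF568 (whose mouse counterpart represses placental Igf2 transcripts) and ZNF677 differed by 0.125, and ZNF154 by 0.375. ZNF671, ZNF582, ZNF471 and ZNF132 differed by 0.

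After the BRG1 and BRM knockdown no ZNF gene passed the adjusted threshold in the exact permutation test, with a smallest adjusted p of 0.1605. The 70 arrangements give no p under 0.0286. At unadjusted p under 0.05, 5 of 237 ZNF genes had fewer regions and none had more, against 3138 and 7 of 17662 genes in all. ZNF93 held 2, 2, 1 and 2 regions with siBRG1_siBRM, against 3 in each siCtl_only library. Its difference of -1.25 had an exact permutation p of 0.0286 and an adjusted p of 0.1605. The median difference was -0.25 for the ZNF genes and -0.75 for all genes.

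The counts are given for the 6 clusters with most genes, with no test between clusters. In the cluster from ZNF175 to ZNF331 (39 genes, chr19:51571283-53580269), 63.25 ± 6.29 regions were held with BRM014 (56 to 69), against 84.25 ± 1.89 with DMSO (83 to 87). This cluster holds 119 of the 674 ZNF regions of the BRM014 experiment and 110 of the 550 of the knockdown experiment. Of its regions, 4 are among the 13 lost with BRM014, 8 among the 26 with DEX and 5 among the 11 after the knockdown. Over all regions of the experiments 8.39%, 9.21% and 6.61% were lost. The cluster from ZNF264 to ZNF446 (43 genes, chr19:57191500-58489533) held 58.5 ± 4.51 with BRM014, against 69.5 ± 3.0 with DMSO, and the clusters that follow are given in the same way. That from ZNF101 to ZNF254 (37 genes) spans 4.46 Mb beside the centromere and held 44.0 ± 3.37, against 52.75 ± 3.59. The cluster from ZNF565 to ZNF573 (26 genes) held 42.75 ± 1.89, against 48.0 ± 2.71, and that from ZNF653 to ZNF791 (25 genes) held 36.25 ± 0.5, against 43.5 ± 4.04. In the cluster from ZNF575 to ZNF180 (23 genes) no region was lost in any of the 3 comparisons, and 29.75 ± 1.26 were held, against 32.25 ± 0.957. All of these are means ± SD over 4 libraries per group without DEX, with all peaks used, and they were not recomputed for equal numbers of peaks.

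The genes of the KRAB co-repressor machinery are given for comparison, in a list of 21 that includes ZNF274. Of these, 12, with ZNF274 among them, had fewer regions with BRM014 in the exact permutation test adjusted over all genes and none had more, where 38.8% of all genes had fewer. The median difference was -1.25, beside -0.75 over all genes. TRIM28, the scaffold that KRAB domains bind, held 2 regions in every BRM014 and DMSO library (difference 0). SETDB1 held 2.0 ± 0 regions with BRM014 and 3.0 ± 0 with DMSO (n = 4 each) and differed by -1.375 over both DEX levels. The HP1 gene CBX5 held 3.5 ± 0.577 with BRM014 and 6.75 ± 1.26 with DMSO and differed by -3.5, and CBX1 by -3.25, while CBX3 differed by -0.5 and did not pass. Of the 18 of these genes with a known strand, 15 had a start peak in all 36 libraries, where 53.3% of other coding genes did. Of a list of 19 ZNF symbols known for promoter methylation in tumours, 16 are among the 246 genes. Of 14 with a known strand, 12 had a start peak in all 36 libraries, ZNF154 in 15 and ZNF177 in none. Over all ZNF genes with a known strand 82.4% had a start peak in all 36, so the list was near the rest. Of the 14 of this list with any region, only ZNF577 had fewer with BRM014, where 13.9% of all ZNF genes and 38.8% of all genes did.

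Few ZNF regions were gained or lost with DEX. After 2 h in control siRNA cells, 3 of 713 ZNF regions (0.421%) were gained, where the background was 2.1%, and 1 (0.140%) was lost, where it was 0.681%. The gains were at ZNF507 (chr19:32373144-32373501), ZNF791 and ZNF805, and the loss was a region shared by ZNF540 and ZNF571. In GATA6 knockdown cells 7 (0.982%) were gained, where the background was 2.02%, and none was lost, where it was 0.509%. The ZNF507 region had a peak in 3 of 3 siGATA6_DEX and 3 of 3 siCtl_DEX libraries, against 0 of 3 siGATA6_Veh and 0 of 3 siCtl_Veh libraries, with folds of 3.84 to 6.13 in the 6 libraries that hold it. In the BRM014 experiment 1 of 4 DEX_DMSO libraries held it and no other. The remaining gains in GATA6 knockdown cells were at ZNF77, ZNF844, ZNF524, and regions shared by ZNF20 and ZNF625, by ZNF569 and ZNF570, and by ZNF350 and ZNF615. With a library left out fewer libraries must agree, so counts of gained or lost regions can only stay or rise, for ZNF regions and all regions alike. The counts over all regions under these settings are not given here, except for a single setting of the GATA6 knockdown below. Leaving out siGATA6_DEX replicate 1 gave 15 in place of 7, and without its replicate 3 it was 11. The losses in these cells were 4 without siGATA6_Veh replicate 1, 2 without its replicate 3, and 1 without its replicate 2 or without siGATA6_DEX replicate 1 or 3, in place of 0. In control siRNA cells the gains were 5 without siCtl_Veh replicate 1 or 2, and 6 without siCtl_Veh replicate 3 or siCtl_DEX replicate 1 or 2, in place of 3. The losses there were 5 without siCtl_Veh replicate 2 and 3 without siCtl_DEX replicate 1, in place of 1.

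After 4 h of DEX in DMSO cells, 1 of 674 ZNF regions (0.148%) was gained, where the background was 1.33%, and none was lost, where it was 0.383%. The gained region, in ZNF749 (chr19:57435770-57435938), had a peak in 4 of 4 DEX_DMSO libraries and 0 of 4 DMSO libraries, and in 0 of 4 libraries of both BRM014 groups. It is also among the regions lost with BRM014 and DEX, and these comparisons share the DEX_DMSO libraries. Under BRM014, 4 h of DEX gained and lost no ZNF region, where 0.17% and 0.0763% of all regions were gained and lost. In the exact permutation tests of the number of regions per gene, no ZNF gene passed for DEX at 2 h or at 4 h, nor did any other gene. The 400 arrangements at 2 h give no p under 0.005, and the 4900 at 4 h none under 0.000408. After adjustment over all genes, passing would need many genes at these floors, so a change at single genes could not have been called. Unadjusted p-values under 0.05 were found for 2 ZNF genes with more regions and 0 with fewer at 2 h, and for 2 and 1 at 4 h, against 1052 and 175 and against 753 and 137 of all genes. The gains in DMSO cells were 4 without DMSO replicate 4, 3 without DEX_DMSO replicate 2, and 2 without DMSO replicate 2 or DEX_DMSO replicate 4, in place of 1. The losses there were 2 without DEX_DMSO replicate 1 and 1 without DMSO replicate 1. Under BRM014 the gains were 2 without DEX_BRM014 replicate 3 and 1 without BRM014 replicate 1.

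Between 0 and 3 ZNF regions were gained or lost in each GATA6 knockdown comparison. In vehicle, 1 region (0.140%) was gained, where the background was 0.374%, and 3 (0.421%) were lost, where it was 0.658%. The gain was in ZNF331 (chr19:53504363-53504484), with a peak in 3 of 3 siGATA6_Veh and 0 of 3 siCtl_Veh libraries, and in 1 of 3 siGATA6_DEX and 0 of 3 siCtl_DEX libraries. The losses were at ZNF77, at ZNF507 (chr19:32357806-32357918) and at a region shared by ZNF20 and ZNF625. The ZNF77 and the ZNF20 and ZNF625 regions are also the gains of DEX in GATA6 knockdown cells, and these comparisons share the siGATA6_Veh libraries. With DEX present none was gained, where the background was 0.566%, and 1, in ZNF791, was lost, where it was 0.597%. In the exact permutation test no ZNF gene passed for GATA6 knockdown, nor did any other gene. The 400 arrangements give no p under 0.005. After adjustment over all genes, passing would need a large number of genes at that floor, so a change at single genes could not have been called. No ZNF gene had an unadjusted p under 0.05, against 136 genes with more and 156 with fewer regions of 18235 in all. With 3 libraries a group, single libraries weigh on these counts. The losses in vehicle were 12 of 713 without siCtl_Veh replicate 2, a larger share than the 2474 of 204358 regions lost in all without it. Of the settings of this comparison it is the one with most ZNF losses, so its share alone is no result about ZNF regions. The losses were 6 without siGATA6_Veh replicate 3 and 5 without siGATA6_Veh replicate 2, in place of 3. The gains in vehicle were 6 without siCtl_Veh replicate 3, 4 without siGATA6_Veh replicate 1, and 2 without siCtl_Veh replicate 1 or 2 or siGATA6_Veh replicate 2, in place of 1. With DEX they lay between 2 and 6 when any single library was left out, in place of 0, with 6 without siGATA6_DEX replicate 1. The losses with DEX were 4 without siCtl_DEX replicate 1 or 2, and 2 without siCtl_DEX replicate 3 or siGATA6_DEX replicate 1, in place of 1.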

How the data were processed

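ATAC-seq peak lists of 36 BT549 libraries in 10 groups were analysed (50000 cells per library, reads of 50 bp, per the labels' protocols). The submitters' processing notes name bcl2fastq, SAMtools, MACS2, HOMER and GRCh38/hg38. Aligner, read shift, duplicate handling and settings are not stated in any source used here. The authors called peaks per library and deposited for each its position, a score, a fold enrichment over local background, and −log10 p and −log10 q values, with a lowest −log10 q of 1.301 to 1.313 per library. The lists carry no counts, so no interval on a share can be given.

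Members and gene lists were chosen with earlier results of these data known. Gene positions and promoters came from RefSeq tables (GRCh38.p14). Peaks were merged per experiment when they shared at least 1 bp. Gene-end regions have their centre within 1000 bp of an outermost gene end. Because 31 of 216 RefSeq promoters lie further than that from the gene end, a peak over the 300-base promoter window was counted as well. Regions per gene were compared by two-sided exact permutation of libraries within the levels of the other factor, with Benjamini-Hochberg adjustment over all genes tested. That script was tested on simulated data. The genes named are a fixed set of 13, up to 6 genes with most changed regions per comparison and direction (ties by rank), the 6 with most regions, the 6 best starts, up to 6 without a region, and the 6 largest clusters. Further names were chosen after their values were seen. Protein sequences were not used here. Alternatives were a −log10 q of at least 5, an equal number of best peaks per library, a replicate block, each library left out, and 2 chosen after seeing the data: peaks that cover at least 50% of the region, and peaks selected before merging. Python 3.11.15, numpy 2.4.6, pandas 2.3.3, scipy 1.17.1 and matplotlib 3.10.9 were used.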

Additional observations from a re-analysis of the deposited data

Results flagged for a closer look

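In 48 sets of 4 libraries (a group and a measure each), the highest or lowest library was set against the spread of the others by Dixon's ratio at the 95% level, which chance passes in about 1 of 20 sets. It was passed 4 times, in 4 different groups. The library siCtl_only replicate 3 had 81639 peaks, the fewest of its group. DEX_DMSO replicate 4 held 312 ZNF gene-end regions, against 318 or 319 in the other libraries of the group. In siBRG1_siBRM replicate 3, 234 of the ZNF genes had a region with a peak. In DEX_BRM014 replicate 2, 183 of the ZNF genes had a peak at the start. Groups of 3 were not examined in this way.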

How the results depend on the processing

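Of 112 values recomputed under an alternative other than leaving out a library, 85 kept their direction and their side of the threshold, or, for counts, stayed within 1.5 times. With peaks of −log10 q of at least 5, DEX at 2 h lost 0 ZNF regions in siCtl cells (1 with all peaks) and gained 2 in siGATA6 cells (7). GATA6 knockdown with DEX then gained 1 (0) and lost 0 (1), BRM014 with DEX lost 17 (26), DEX at 4 h in DMSO gained 2 (1), the BRG1 and BRM knockdown lost 7 (11), and the difference in peaks per library for siGATA6 reversed to -1822 (1492; exact permutation p = 0.58). With an equal number of best peaks, GATA6 knockdown with DEX gained 1 (0) and lost 0 (1), BRM014 gained 7 (0) and lost 2 (13), BRM014 with DEX gained 1 (0) and lost 3 (26), DEX at 4 h in DMSO gained 0 (1) and lost 1 (0), and the BRG1 and BRM knockdown gained 2 (0) and lost 0 (11). Of the ZNF genes, 6 then had more regions (0) and 1 fewer (33) with BRM014. With peaks that cover at least 50% of the region, DEX at 2 h lost 0 in siCtl cells (1) and 1 in siGATA6 cells (0), GATA6 knockdown gained 2 in vehicle (1) and 1 with DEX (0), and BRM014 lost 21 (13). Selecting peaks before merging moved none of 18 values. Asking for a 50% overlap of peak and region could change nothing by construction, since a region contains its peaks. Fewer regions enter the first pair of alternatives; otherwise the cause was not tested.

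With a replicate block, 10 ZNF genes had fewer regions with BRM014 (33). The knockdown difference of -34835 peaks per library then had an exact permutation p of 0.125, below which a two-sided test of 4 pairs cannot go. The other 13 values with the block were of the same kind as without it. Deviations of same-numbered libraries were at most weakly correlated (r from -0.0504 to 0.101 over all pairs), and the main tests did not pair libraries by number. In the GATA6 experiment these correlations were all positive, from 0.0138 to 0.101. Whether its libraries are paired is not known. As a hint from the data only, all 6 of 6 libraries correlated best with their own number between siGATA6 and siCtl, in vehicle and with DEX. Elsewhere 3 or 4 libraries did so in each comparison, so not every library.

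When 1 library was left out, the ZNF regions gained lay at 3 to 6 for DEX at 2 h in siCtl, 7 to 15 for DEX in siGATA6, 1 to 6 for siGATA6 in vehicle, 2 to 6 for siGATA6 with DEX, 0 to 1 for BRM014, 1 to 4 for DEX at 4 h in DMSO and 0 to 2 under BRM014. Those lost lay at 1 to 5, 0 to 4, 3 to 12, 1 to 4, 13 to 18 and 0 to 2 for the first 6 of these, 26 to 32 for BRM014 with DEX and 11 to 16 for the knockdown. Such counts of gained or lost regions can only stay or rise when a library is left out. Between 32 and 43 ZNF genes had fewer regions with BRM014. The difference in peaks per library lay between -478.5 and 2639.8 for siGATA6, below 0 without siGATA6_Veh replicate 3 or siGATA6_DEX replicate 3 (-222.7). It lay between -43333 and -39793 for BRM014 and between -40059 and -30251 for the knockdown (exact permutation p from 0.0286 to 0.0571).

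Peak lists without counts limit what can be said: a region just under the threshold and a closed one look alike, and the depth behind a missing peak is unknown.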
